A study of Homo sapiens with 36 samples.

Results

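Expression of 6 metallothionein genes, MT1E, MT1F, MT1G, MT1M, MT1X and MT2A, was followed through all 36 libraries of the series. The members were set as a list of names, drawn up with earlier results of these data known, out of 60725 Ensembl genes in the tables. All 6 lie within 75.6 kb of chromosome 16 (GRCh38, GENCODE version 44). MT2A (ENSG00000125148.6) spans 56608584 to 56609497, MT1E (ENSG00000169715.14) 56625475 to 56627112, MT1M (ENSG00000205364.3) 56632659 to 56633981, MT1F (ENSG00000198417.6) 56657731 to 56660698 and MT1X (ENSG00000187193.8) 56682470 to 56684196, all on the plus strand. MT1G (ENSG00000125144.13), at 56666730 to 56668065, lies on the minus strand. All are protein coding.

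Metallothioneins are small proteins rich in cysteine that bind zinc and copper, buffer the free zinc of the cell and take up cadmium. Zinc switches their genes on through MTF1, a factor that binds metal response elements in their promoters, and glucocorticoids, cytokines and oxidative stress also act on several of them. SLC30A1, which carries zinc out of the cell, is another known target of MTF1.

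The libraries fall into 18 groups of 2. The first line, MCF-10A ER-Src, derives from non-transformed human breast epithelium and carries v-Src joined to the ligand-binding domain of the estrogen receptor. Tamoxifen (TAM) switches the oncoprotein on and starts transformation, and ethanol (ETH) is the vehicle of the non-transformed cells. The study's methods for siRNA work give AZD0530, an inhibitor of Src kinase, together with tamoxifen, and name 2 treatment times. The treatment notes name AZD0530 as well, without saying which libraries received it. The labels give no treatment time, so the time of each library is not known. All ER-Src groups grew with hydrocortisone, insulin, EGF, cholera toxin and charcoal-stripped serum, in both treatments. They received a control siRNA (Ctrli) or siRNAs against YAP (YAPi), TAZ (TAZi), STAT3 (STAT3i) or JUNB (JUNBi). MDA-MB-231 is a triple-negative breast cancer line that grew in serum-containing medium. Its libraries form set 1, with Ctrli, YAPi, TAZi, YAPi_TAZi and TEADi (siRNAs against the TEAD family), and set 2, with its own Ctrli, JUNBi and STAT3i. Nothing in the labels says that the libraries of a group came from separate cultures, so the p-values measure the spread between these libraries, which may be technical.

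Of the 6 members, 2 matched the table of promoter sequences from RefSeq (GRCh38.p14), MT2A, the most abundant member, and MT1X, the one that changed most with TAM. Both are shown for their metal response elements. The 250 bases before each start are printed 5′ to 3′ on the plus strand, chr16:56608334-56608583 for MT2A and chr16:56682220-56682469 for MT1X. Capitals mark every match, on either strand, to the core of the metal response element, written TGCACNC or TGCGCNC.
MT2A: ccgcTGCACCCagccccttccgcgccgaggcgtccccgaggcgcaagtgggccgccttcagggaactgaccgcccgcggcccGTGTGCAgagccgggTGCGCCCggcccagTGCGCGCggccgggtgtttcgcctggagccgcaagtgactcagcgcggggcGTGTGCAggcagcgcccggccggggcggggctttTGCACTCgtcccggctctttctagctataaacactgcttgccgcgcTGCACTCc
MT1X: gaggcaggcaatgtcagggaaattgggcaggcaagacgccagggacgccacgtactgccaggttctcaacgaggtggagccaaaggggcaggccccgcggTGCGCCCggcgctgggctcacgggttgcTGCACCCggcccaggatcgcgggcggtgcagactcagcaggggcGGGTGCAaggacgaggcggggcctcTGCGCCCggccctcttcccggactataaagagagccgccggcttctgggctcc
MT2A held 7 such matches and MT1X 4. Of 35116 promoters of this length in the table, 24.8% held at least 1 match and 0.37% held 4 or more. The AP-1 motif TGANTCA, to which JUN and FOS proteins bind, matched once in MT2A, at position -104 from the start, and not in MT1X (6.57% of all promoters). The STAT motif TTCNNNGAA matched once in MT2A, at position -194, and not in MT1X (6.57% of all promoters). The TEAD motif GGAATG had no match in either (11.9% of all promoters). These are letter matches within the printed window and no more.

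Depth ran from 1411304 to 19161700 expected counts per library. In ER-Src and in the set 1 knockdowns, 7 RNAs without a poly(A) tail took 8.71% to 11.8% of the counts, against at most 0.0112% in the set 1 controls and set 2. The set 1 controls were also deeper, with 13456784 and 13534560 counts against 1411304 to 2784605. In set 1, knockdown therefore cannot be told apart from these differences between libraries. The gap between gene length and effective length, which sets TPM for short genes such as these, was 49.0 bases in the ER-Src STAT3i and JUNBi libraries and 49.5 bases in the other ER-Src libraries. It was 75.0 bases in the set 1 controls, 48.0 bases in replicate 1 and 74.6 bases in replicate 2 of each set 1 knockdown, and 74.5 bases in set 2. All 18 checks of a targeted gene against its controls were low in both libraries, at 0.533% to 49.9% of control TPM. The epithelial keratin KRT5 lay at 1012 to 2622 TPM in ER-Src and 0 to 11.5 TPM in MDA-MB-231, the mesenchymal filament gene VIM at 184 to 338 and 369 to 2591 TPM, and the estrogen receptor gene ESR1, part of which the ER-Src fusion carries, at 88.1 to 206 and 0 to 2.57 TPM.

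MT2A was the most abundant member in every group on the TPM scale (relative transcript abundance, which corrects for gene length). MT1E came next in most groups, but MT1X lay above it in TAM Ctrli and TAM TAZi. MT2A ran from 218 to 6981 TPM, MT1E from 112 to 1437, MT1X from 22.5 to 969 and MT1F from 1.00 to 25.1. MT1G did not exceed 1.94 TPM or 9 counts in any library, and MT1M did not exceed 1.04 TPM or 23 counts. The copies are so alike that a read can fit several of them, and the RSEM program divided such reads by probability. Given the reads, the posterior SD that RSEM gave for its count was at most 0.322% of the mean for MT2A, 1.23% for MT1E, 3.32% for MT1X and 19.9% for MT1F, which held 2 to 5 counts in the set 1 knockdowns. For MT1G it was at least 18.1%. For MT1M it ran from 6.27% to 460% in ER-Src, and was at most 0.6% in MDA-MB-231 set 2, where the gene had at most 5 counts. The sum over the 6 members does not depend on how reads were shared among them.

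The summed level was highest in MDA-MB-231 set 2, where Ctrli stood at 7622 ± 981 TPM (SD, n = 2), JUNBi at 6816 ± 743 and STAT3i at 6681 ± 76.8. Neighbours in that order overlapped. All 3 lay above the next group, ER-Src TAM Ctrli, at 4701 ± 191 TPM. TAM JUNBi (4412 ± 195), TAM TAZi (3448 ± 92.8) and TAM YAPi (2365 ± 472) followed, each without overlap with the group above it. From TAM YAPi down through the set 1 controls (2226 ± 87.2), ETH Ctrli (1979 ± 524), ETH STAT3i (1859 ± 419) and TAM STAT3i (1661 ± 28.4), neighbouring groups overlapped. On this scale the sum in TAM STAT3i lay within the range of ETH Ctrli, while on normalized counts it lay below, at 15955 and 16655 against 24390 and 20848. Below them came ETH TAZi (1100 ± 64.7), ETH JUNBi (1032 ± 98.9), set 1 TEADi (898 ± 192), ETH YAPi (894 ± 145) and set 1 YAPi (769 ± 183), TAZi (585 ± 201) and YAPi_TAZi (459 ± 128), where each neighbouring pair again overlapped. Cell lines and sets were not tested against each other, because their libraries differ in composition.

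The single members ordered the groups in other ways. MT1X was highest in TAM JUNBi (949 ± 28.7 TPM) and TAM Ctrli (941 ± 9.27), which overlapped, and lowest in ETH YAPi (26.9 ± 6.25), below ETH STAT3i (42.1 ± 0.997) without overlap. MT1E was highest in TAM JUNBi (1346 ± 129 TPM), above set 2 JUNBi (933 ± 88.7) without overlap, and lowest in set 1 YAPi_TAZi (125 ± 18.7). MT1F had its highest means in TAM JUNBi (23.7 ± 1.91 TPM) and TAM Ctrli (22.2 ± 0.849), which overlapped.

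**Figure D1:**
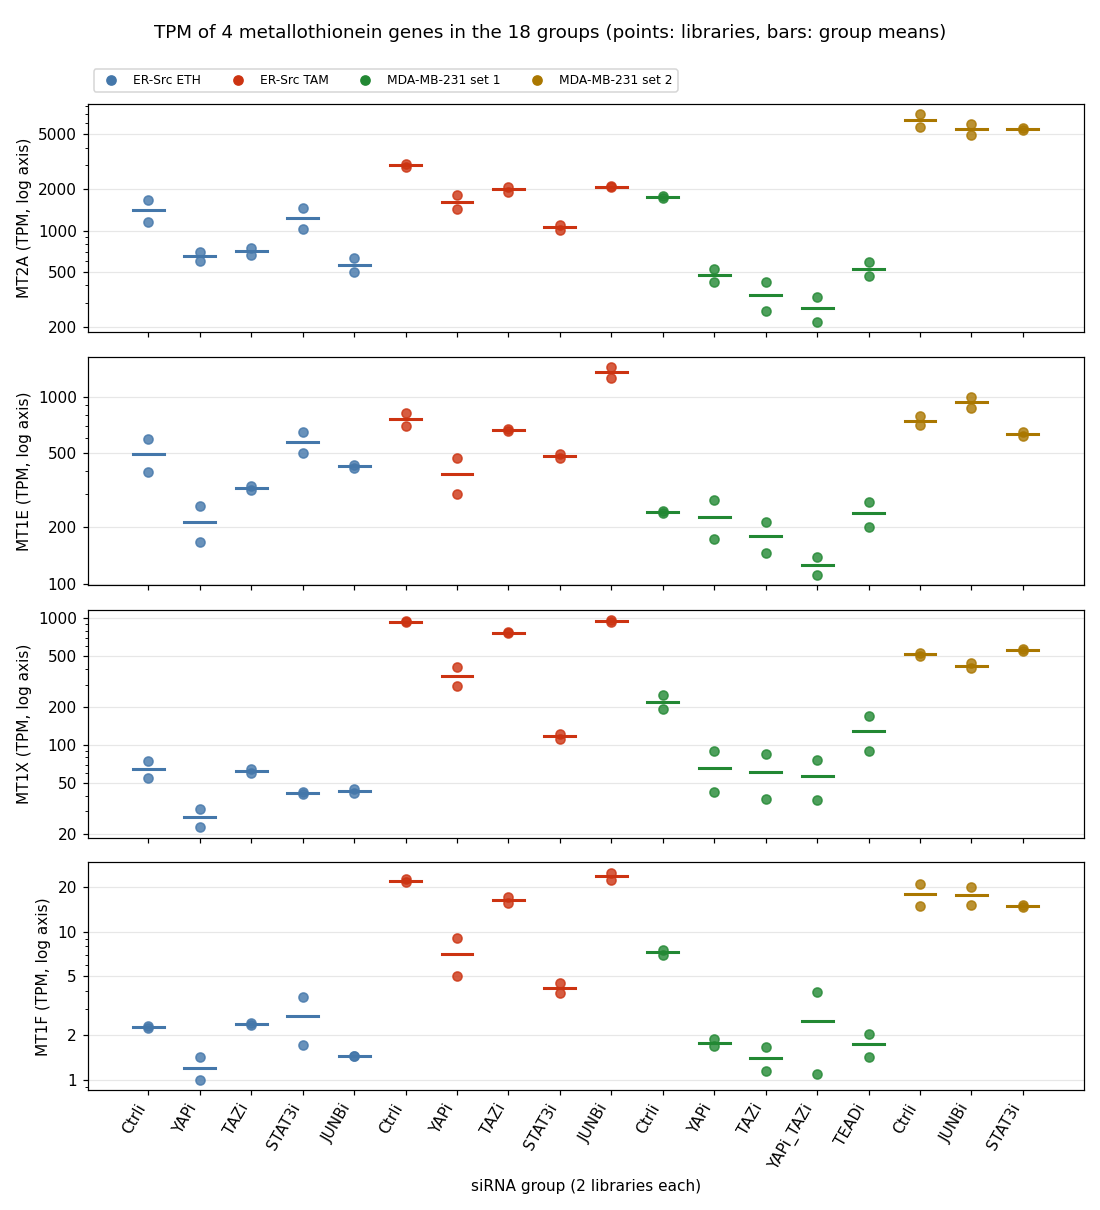
TPM of MT2A, MT1E, MT1X and MT1F on log axes in the 18 groups. Points are libraries and short bars are group means. MT1X lay between 22.5 and 74.5 TPM in the ER-Src ETH libraries and between 112 and 969 TPM in the TAM libraries, while MT2A was highest in MDA-MB-231 set 2, at 4962 to 6981 TPM.

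Treatment with TAM, which may have included AZD0530, addresses which genes change when v-Src is switched on. In Ctrli cells all 4 members that could be tested rose, and MT1X rose most. MT1X stood at 74.5 and 55.0 TPM in the ETH libraries and at 935 and 948 TPM in the TAM libraries. On normalized counts this was 16.8-fold, a log2 fold change of 4.07 (SE 0.11), with a DESeq2 adjusted p too small for the software to store. MT1F went from 2.24 and 2.33 TPM to 21.6 and 22.8 TPM (log2 fold change 3.36, SE 0.31, adjusted p 5.7e-26). MT2A was already high in ETH, at 1683 and 1156 TPM, and reached 2915 and 3045 TPM (log2 fold change 1.24, SE 0.10, adjusted p 4.9e-31). MT1E moved from 590 and 395 TPM to 694 and 818 TPM (log2 fold change 0.65, SE 0.12, adjusted p 1.2e-06). Both TAM libraries lay above both ETH libraries for each of these genes. Of all 15934 genes tested, 4.56% were called higher (adjusted p under 0.01), with a median log2 fold change of -0.01. MT1G and MT1M got no adjusted p. MT1M had 6 and 5 counts in TAM against 0 and 1 in ETH, and MT1G 3 and 9 against 2 and 0. Without ETH Ctrli replicate 2 the call for MT1E was lost (0.56, adjusted p 0.016), as it was without TAM Ctrli replicate 2 (0.49, adjusted p 0.012). In these bulk samples fewer cells of a kind and less RNA per cell cannot be told apart.

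The make-up of the pool changed with TAM as well. MT1X contributed 3.29% and 3.32% of the summed expected count in ETH Ctrli and 21.4% and 20.7% in TAM Ctrli. MT1E went from 25.4% and 26.4% to 14.5% and 16.1%, and MT2A from 71.1% and 70.0% to 63.4% and 62.5%. The groups did not overlap for any of the 3 shares, which do not depend on the scaling between libraries. The summed normalized count was 2.65-fold higher in TAM. Together the 6 genes made up 0.198% ± 0.052 of all TPM in ETH Ctrli and 0.470% ± 0.019 in TAM Ctrli (SD, n = 2).

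**Figure D2:**
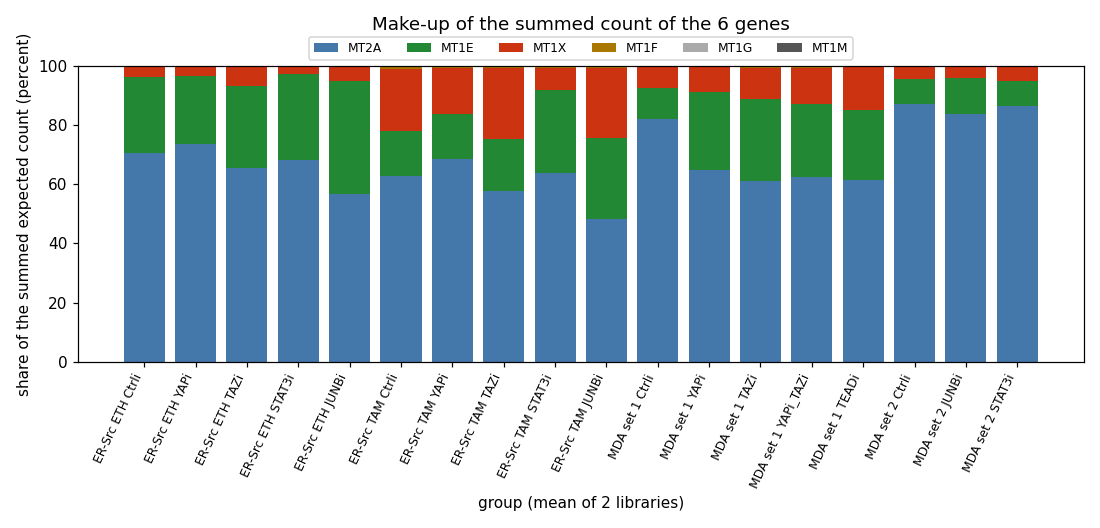
Share of each member in the summed expected count of the 6 genes (percent), as group means of 2 libraries. MT1X takes 21.0% in ER-Src TAM Ctrli, 7.56% in TAM STAT3i and 3.31% in ETH Ctrli, and MT2A takes at least 48.4% in every group.

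STAT3 is the transcription factor through which interleukin-6 family cytokines act, and of the 4 knockdowns in TAM its own left the smallest summed level. MT1X stood at 122 and 112 TPM, against 935 and 948 TPM in Ctrli, and fell 9.98-fold (log2 fold change -3.32, SE 0.12, DESeq2 adjusted p 2.9e-176). MT1F stood at 4.50 and 3.84 TPM against 21.6 and 22.8 TPM (-2.67, SE 0.27, adjusted p 3.7e-20). MT2A stood at 1019 and 1096 TPM against 2915 and 3045 TPM (-1.82, SE 0.11, adjusted p 2e-62). MT1E was the least changed, at 495 and 469 TPM against 694 and 818 TPM (-0.97, SE 0.12, adjusted p 6e-13). All 4 tested members were lower, without overlap, where 4.8% of 14470 genes were called lower and the median was 0.03. The summed count was 3.59-fold lower.

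Under ETH the same siRNA gave no called member by DESeq2 or edgeR, with 0.201% of 18444 genes called by DESeq2. MT1X and MT2A had an unadjusted p under 0.05, a threshold at which no share of all genes is given. The lowest adjusted p was that of MT1X, 0.052, at 41.4 and 42.8 TPM against 74.5 and 55.0 TPM in Ctrli (log2 fold change -0.80, SE 0.21). MT2A changed by -0.42 (95% interval -0.78 to -0.06) and MT1E by -0.22 (-0.53 to 0.10). Without ETH STAT3i replicate 2, MT2A was called lower (-0.64, adjusted p 0.00037), and with 1 fit over all groups MT1X was (-0.81, adjusted p 0.00018). The summed normalized count was 1.3-fold lower, a log2 ratio of -0.37 that was -0.09 on the TPM scale.

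The difference between the effect of STAT3i in TAM and in ETH was therefore tested as an interaction term. It was called for all 4 tested members, each more strongly lowered in TAM, where 0.951% of 15885 genes were called in that direction. STAT3 itself stood at 21.1% of control TPM in TAM STAT3i and at 31.9% in ETH STAT3i. Treatment and depth of knockdown cannot be told apart in this term. The term was -2.54 for MT1X (SE 0.20, adjusted p 6.2e-35), -2.64 for MT1F (SE 0.52, adjusted p 5.5e-05), -1.42 for MT2A (SE 0.22, adjusted p 2.2e-08) and -0.78 for MT1E (SE 0.20, adjusted p 0.0081). Seen from the other side, TAM raised the normalized count of MT1X 16.7-fold in Ctrli and 2.88-fold in STAT3i, as ratios of group means. For MT2A the ratio was 2.34 in Ctrli and 0.880 in STAT3i, where the libraries of the 2 treatments overlapped. With edgeR, MT1X alone stayed called, while the adjusted p was 0.027 for MT2A, 0.02 for MT1F and 0.13 for MT1E. The call for MT1E was also lost with TMM (adjusted p 0.014) and 1 fit over all groups (0.053), and without either ETH Ctrli library, TAM Ctrli replicate 2, either TAM STAT3i library or ETH STAT3i replicate 2 (-0.86 to -0.62, adjusted p 0.017 to 0.21). The call for MT1F was lost without TAM Ctrli replicate 2 (-2.54, adjusted p 0.012).

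**Figure D3:**
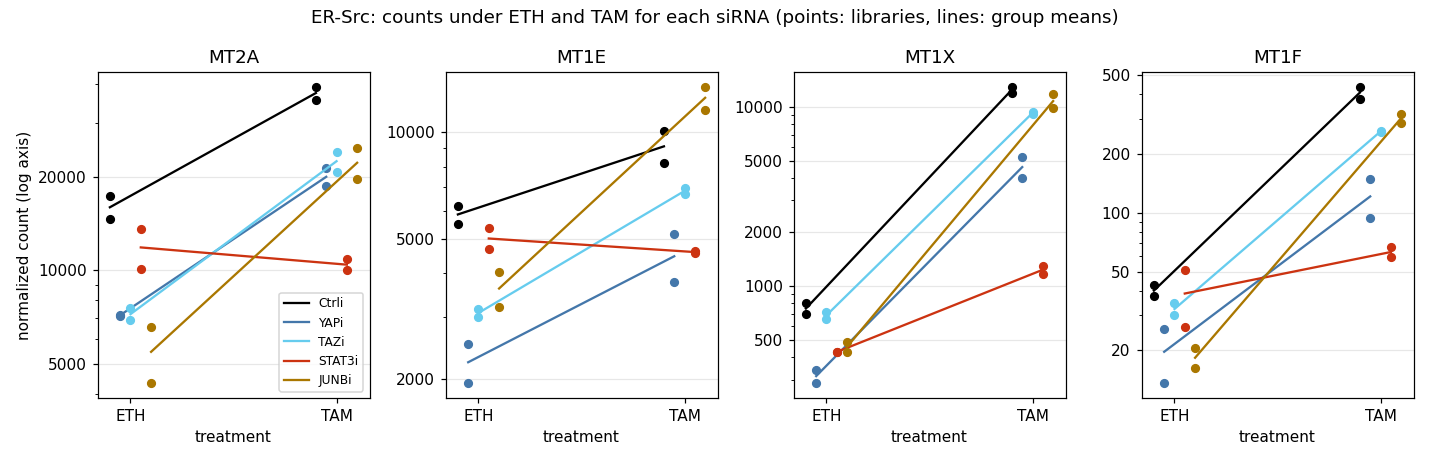
Normalized counts (log axes) of 4 metallothionein genes in ER-Src under ETH and TAM, for each siRNA. Points are libraries, offset sideways to separate them, and lines join group means. In STAT3i the TAM to ETH ratio of MT1X was 2.88, against 13.5 to 23.6 in the other 4 siRNA groups.

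YAP is a coactivator that works through TEAD proteins and is held back by the Hippo pathway. Its knockdown lowered all 4 tested members in TAM. TAM against ETH and the 4 TAM knockdowns share the same TAM Ctrli libraries, and every interaction uses the Ctrli libraries of both treatments. Likewise the 4 ETH knockdowns share the ETH Ctrli libraries, and the knockdowns of each MDA-MB-231 set share the controls of that set. Comparisons with shared controls are therefore not independent. MT1X stood at 413 and 292 TPM against 935 and 948 TPM in Ctrli (log2 fold change -1.43, SE 0.14, DESeq2 adjusted p 2.2e-23). MT1F stood at 9.16 and 5.03 TPM against 21.6 and 22.8 TPM (-1.76, SE 0.28, adjusted p 3.4e-08). MT1E stood at 467 and 300 TPM (-1.02, SE 0.16, adjusted p 4.4e-09) and MT2A at 1809 and 1434 TPM (-0.89, SE 0.11, adjusted p 3.5e-14). Both knockdown libraries lay below both controls each time, and 5.54% of 14182 genes were called lower. The summed count was 2.02-fold lower.

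In ETH cells MT1E stood at 261 and 167 TPM against 590 and 395 TPM (-1.39, SE 0.14, adjusted p 1.5e-22), MT1X at 31.4 and 22.5 TPM against 74.5 and 55.0 TPM (-1.25, SE 0.19, adjusted p 7.9e-10) and MT2A at 703 and 601 TPM against 1683 and 1156 TPM (-1.16, SE 0.11, adjusted p 1.2e-23). These 3 members were called lower, as were 6.36% of 15005 genes. MT1F, at 1.00 and 1.42 TPM, was not called (-1.07, SE 0.65, adjusted p 0.29). No member had a called interaction with TAM by DESeq2 or edgeR, nor an unadjusted p under 0.05 for it, where 0.496% of 15721 genes were called, and the term for MT1X was -0.19 (95% interval -0.57 to 0.19).

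TAZ is the paralog of YAP. After its knockdown in TAM, 3 of the 4 tested members were called lower. MT2A stood at 2080 and 1915 TPM against 2915 and 3045 TPM (log2 fold change -0.73, SE 0.10, DESeq2 adjusted p 5.4e-11). MT1X stood at 759 and 781 TPM against 935 and 948 TPM (-0.43, SE 0.09, adjusted p 4.2e-05) and MT1E at 657 and 668 TPM against 694 and 818 TPM (-0.42, SE 0.11, adjusted p 0.006). Of all 13442 genes 1.74% were called lower, and MT1F was not among them (-0.65, adjusted p 0.044). MT1X and MT1E lost their calls without TAM Ctrli replicate 2 (-0.37 and -0.26) without either TAZi library, with edgeR (adjusted p 0.032 and 0.07) and with 1 fit over all groups (0.049 and 0.16), and MT1E also with effective length offsets (-0.29, adjusted p 0.2). The fall of MT2A was called in each of these.

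In ETH cells TAZi lowered MT2A from 1683 and 1156 TPM to 671 and 752 TPM (-1.15, SE 0.11, adjusted p 1.2e-22) and MT1E from 590 and 395 TPM to 316 and 331 TPM (-0.93, SE 0.11, adjusted p 2.6e-15). MT1X, at 64.8 and 60.2 TPM, lay within the range of its controls (-0.13, 95% interval -0.46 to 0.20). Here 2.78% of 13253 genes were called lower. The TAZi interaction with TAM was called for none of 3 tested members by DESeq2 or edgeR, where 1.64% of 4328 genes were called by DESeq2. All 3 had an unadjusted p under 0.05, a threshold at which no share of all genes is given. The terms were 0.50 for MT1E (adjusted p 0.029), 0.40 for MT2A (adjusted p 0.085) and -0.32 for MT1X (adjusted p 0.19). Without TAM Ctrli replicate 2 the term for MT1E was called (0.66, adjusted p 0.0013).

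JUNB is a subunit of AP-1, and its knockdown moved the members in different directions in TAM. MT1E rose, from 694 and 818 TPM in Ctrli to 1437 and 1255 TPM (log2 fold change 0.48, SE 0.13, DESeq2 adjusted p 0.0035), where 2.77% of 13375 genes were called higher. Its normalized counts, 9961 and 11537 against 6905 and 8513, rose less than its TPM. MT2A fell, from 2915 and 3045 TPM to 2117 and 2068 TPM (-0.73, SE 0.12, adjusted p 3e-07), where 3.95% were called lower. MT1X, at 969 and 929 TPM, was not called (-0.19, 95% interval -0.42 to 0.04), and neither was MT1F (-0.41, -0.85 to 0.03). The call for MT1E was lost without TAM Ctrli replicate 1 (0.35, adjusted p 0.4) or JUNBi replicate 2 (0.38, adjusted p 0.12), and with edgeR (adjusted p 0.037), a mean count of at least 10 (0.01) or 1 fit over all groups (0.058). That for MT2A was lost without TAM Ctrli replicate 2 (-0.63, adjusted p 0.017).

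Under ETH, JUNBi lowered MT2A from 1683 and 1156 TPM to 500 and 628 TPM (-1.56, SE 0.25, adjusted p 1.8e-07), where 1.59% of 15234 genes were called lower. This call was lost with edgeR (adjusted p 0.063) and without ETH Ctrli replicate 1 (-1.43, adjusted p 0.095) or replicate 2 (-1.69, adjusted p 0.011). MT1E changed by -0.71 (adjusted p 0.043) and MT1X by -0.72 (adjusted p 0.1). MT1E was called lower without JUNBi replicate 1 (-0.56, adjusted p 0.0013) or replicate 2 (-0.88, adjusted p 1.3e-08), and MT1X without replicate 2 (-0.81, adjusted p 0.0062). With 1 fit over all groups both were called lower (-0.70, adjusted p 0.0009, and -0.71, adjusted p 8.9e-05). JUNB itself stood at 28.1% of control TPM in TAM JUNBi and at 49.9% in ETH JUNBi, so treatment and depth of knockdown cannot be told apart in the interaction. The interaction with TAM was called for MT1E alone (1.17, SE 0.26, adjusted p 0.0028), where 0.0686% of 16037 genes were called in that direction. It was lost with edgeR (adjusted p 0.27), with effective length offsets (0.86, adjusted p 0.22) and without either Ctrli library of either treatment or either TAM JUNBi library (1.02 to 1.33, adjusted p 0.011 to 0.23). Without ETH JUNBi replicate 2 the term for MT2A, 0.81 with an adjusted p of 0.35, was called as well (1.14, adjusted p 7.1e-06).

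The shares within the pool are free of the scaling between libraries, and were read in each setting in which JUNBi was used. In TAM, MT1E made up 28.0% and 26.8% of the summed count against 14.5% and 16.1% in Ctrli, and MT2A 47.6% and 49.2% against 63.4% and 62.5%. In ETH, MT1E made up 40.1% and 36.2% against 25.4% and 26.4%. In MDA-MB-231 set 2 it made up 12.4% and 12.1% against 8.98% and 8.31%. The JUNBi libraries lay above the controls without overlap in all 3 settings. The share of MT1E also lay above the controls without overlap after other siRNAs. It was 28.8% and 27.4% in TAM STAT3i and 17.1% and 18.1% in TAM TAZi. Under ETH it was 30.6% and 27.5% in STAT3i and 28.2% and 27.7% in TAZi. In the set 1 knockdowns it was 22% to 28.7%, against 10.7% and 10.3% in Ctrli. There knockdown cannot be told apart from the differences in depth and in RNAs without a poly(A) tail. ER-Src YAPi and set 2 STAT3i did not lie wholly above their controls. The shares were not tested.

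**Figure D4:**
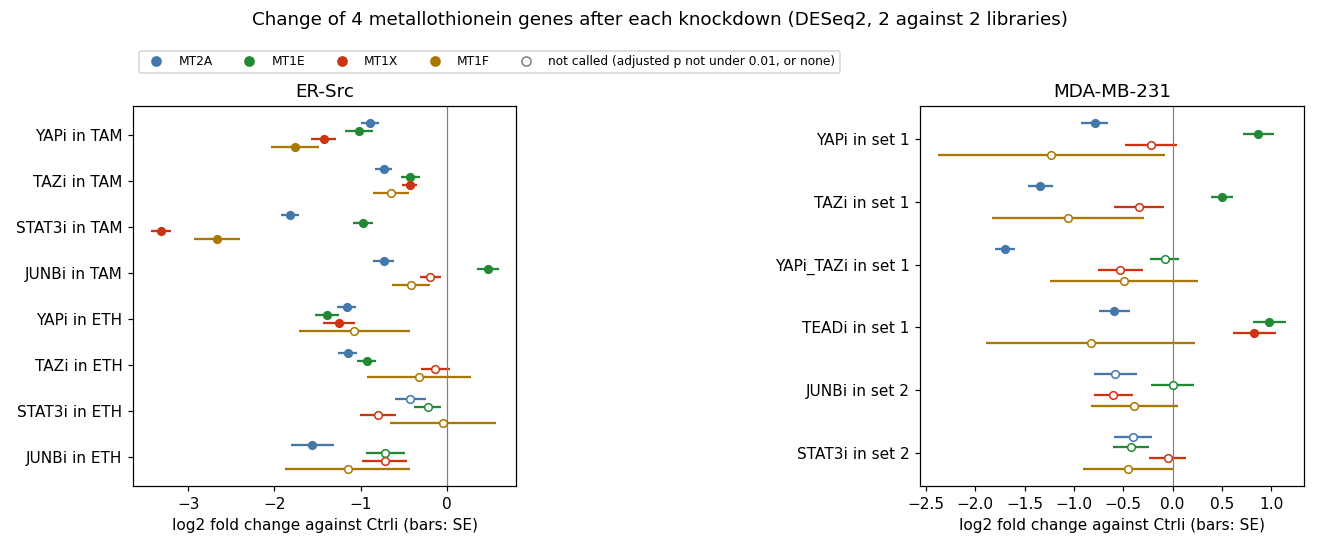
Log2 fold change against Ctrli of MT2A, MT1E, MT1X and MT1F for each knockdown in ER-Src (left) and MDA-MB-231 (right). Bars are SE, filled points had an adjusted p under 0.01, and open points did not or had none. In TAM, STAT3i moved MT1X by -3.32 and JUNBi moved MT1E by 0.48.

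In MDA-MB-231 set 1 the controls differed from the knockdowns in depth and in RNAs without a poly(A) tail, so values on both scales are given. MT2A fell in all 4 knockdowns. It stood at 1720 and 1794 TPM in Ctrli, 423 and 525 in YAPi, 259 and 426 in TAZi, 218 and 330 in YAPi_TAZi and 470 and 588 in TEADi. The log2 fold changes were -0.79 (SE 0.14, DESeq2 adjusted p 1.8e-07), -1.34 (SE 0.13, adjusted p 5.1e-24), -1.70 (SE 0.10, adjusted p 2.2e-65) and -0.59 (SE 0.16, adjusted p 0.0014). The share of all genes called lower was 11.9%, 16.6%, 18.2% and 14.4%. With TEADi the call for MT2A was lost without either control (-0.67 and -0.54) and with edgeR (adjusted p 0.03). It was also lost with a mean count of at least 10 (-0.50, adjusted p 0.016). With effective lengths as offsets in the fit, the calls for YAPi (-0.43, adjusted p 0.047) and TEADi (-0.27, adjusted p 0.28) were lost, as they were with the controls of both sets (-3.31, adjusted p 0.011, and -3.11, adjusted p 0.015).

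For MT1E the scales gave different directions. Its TPM was 245 and 239 in Ctrli, 173 and 280 in YAPi, 145 and 213 in TAZi and 202 and 273 in TEADi, so the groups overlapped or lay below Ctrli. On normalized counts it was called higher in YAPi (0.87, SE 0.16, adjusted p 1.1e-06), TAZi (0.50, SE 0.11, adjusted p 5.7e-05) and TEADi (0.98, SE 0.17, adjusted p 8.8e-08), where 12.2%, 15.7% and 13.7% of genes were called higher. Leaving out Ctrli replicate 1 ended all 3 calls (0.81, 0.45 and 0.92), and leaving out replicate 2 ended those for YAPi and TAZi (0.89 and 0.53). The TAZi call was also lost without TAZi replicate 1 (0.42, adjusted p 0.024). In YAPi_TAZi MT1E was not called (-0.08, 95% interval -0.37 to 0.21), at 112 and 138 TPM. MT1X was called higher on normalized counts in TEADi (0.83, SE 0.22, adjusted p 0.00094), while its TPM was 89.2 and 171 against 192 and 246 in Ctrli, and the call was lost without Ctrli replicate 1 (0.63, adjusted p 0.21), Ctrli replicate 2 (1.02, adjusted p 0.019) or TEADi replicate 1 (0.81, adjusted p 0.052).

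The set 1 knockdowns were also compared with each other, with the replicate number as a block. Their replicates differed too, with a length gap of 48.0 bases and 8.71% to 9.77% of counts in the 7 RNAs in replicate 1, and 74.6 bases and 11% to 11.8% in replicate 2. Against the other 3 knockdowns, TEADi had more MT1X (1.19, SE 0.21, DESeq2 adjusted p 5.6e-06, with 0.82% of 10727 genes called higher). MT1X was at 89.2 and 171 TPM in TEADi and at 37.2 to 89.4 TPM in the other 3 knockdowns, and within a replicate number TEADi was the highest. The call was lost without TEADi replicate 1 (1.08, adjusted p 0.21) or replicate 2 (1.31, adjusted p 0.1). In YAPi_TAZi MT1E was lower than in the others (-0.87, SE 0.22, adjusted p 0.0084, with 0.532% of 9766 genes called lower), a call that was lost without either YAPi_TAZi library (-0.97 and -0.76), either YAPi or TEADi library or TAZi replicate 2, and with edgeR (adjusted p 0.1). For YAPi and TAZi no tested member was called in this comparison, where 0.597% of 3516 and 0.377% of 9286 genes were called by DESeq2, and none had an unadjusted p under 0.05 or an edgeR call.

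In set 2 none of the 3 members with an adjusted p was called by DESeq2 after JUNBi or STAT3i, where 3.99% of 7187 and 0.237% of 4639 genes were called. At an unadjusted p under 0.05 there were 2 in each, MT2A and MT1X after JUNBi and MT2A and MT1E after STAT3i, and edgeR called none. The shares of all genes are at the adjusted threshold, and none is given at the unadjusted one. MT1X stood at 404 and 442 TPM in JUNBi against 503 and 537 TPM in Ctrli (-0.60, SE 0.20, adjusted p 0.032) and at 572 and 551 TPM in STAT3i (-0.05, 95% interval -0.42 to 0.32). MT2A stood at 5921 and 4962 TPM in JUNBi and 5533 and 5412 TPM in STAT3i against 5704 and 6981 TPM (-0.58, adjusted p 0.069, and -0.40, adjusted p 0.43). MT1E stood at 996 and 870 TPM in JUNBi against 701 and 783 TPM, above Ctrli without overlap, while on normalized counts the groups overlapped (-0.00, 95% interval -0.43 to 0.42). The interval for MT1X after STAT3i excluded a fall of the size in ER-Src TAM (-3.32), although the effect was not tested between the cell lines. Without Ctrli replicate 3, MT2A was called lower after both siRNAs (-0.83, adjusted p 0.0034, and -0.65, adjusted p 0.0001), MT1X after JUNBi (-0.75, adjusted p 0.0068, and -0.60, adjusted p 0.0074, with 1 fit over all groups) and MT1E after STAT3i (-0.61, adjusted p 0.0023). MT1F got no adjusted p in set 2.

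Other metallothionein genes were less abundant than MT2A and MT1E. Of 15 listed, 9 are annotated as pseudogenes. MT1L (a transcribed pseudogene between MT2A and MT1E) was found in every ER-Src library, at 4.04 to 47.2 TPM, and listed at 0 in all MDA-MB-231 libraries. MT1A, which is protein coding, showed the reverse, with at most 1 count in any ER-Src library and up to 63.1 TPM in MDA-MB-231. MT1L fell in TAM STAT3i (-1.10, SE 0.26, adjusted p 0.00044) and TAM TAZi (-0.88, SE 0.24, adjusted p 0.0093). Under ETH it fell in TAZi (-2.19, SE 0.37, adjusted p 2e-07), YAPi (-1.52, SE 0.31, adjusted p 2e-05) and JUNBi (-1.72, SE 0.40, adjusted p 0.001), and its interaction of JUNBi with TAM was called (1.94, SE 0.43, adjusted p 0.0023). MT1P3 rose with TAM (2.46, SE 0.49, adjusted p 1.6e-05) and fell in TAM STAT3i (-2.40, SE 0.52, adjusted p 9e-05). MT1XP1 fell in TAM STAT3i (-3.48, SE 0.71, adjusted p 2.7e-05) and TAM JUNBi (-2.21, SE 0.63, adjusted p 0.0072). MT1P3 and MT1XP1 are processed copies on other chromosomes. Their values and those of MT1L are uncertain because near-identical genes share reads. MT2P1 did not exceed 70.2 TPM, and MT1DP, MT1JP and MT1P1 reached a mean of 1 TPM in a single group each. In TAM against ETH 5 of the 15 could be tested, and 1 was called higher, where 4.56% of all genes were. For the other comparisons in this paragraph, the shares of all genes called are given with the members above. Adding all 15 to the sum left its log2 ratio for TAM against ETH at 1.40.

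Genes of zinc handling were read as a list of 23. MTF1 itself, at 0.58 to 4.53 TPM, was called in no comparison. SLC30A1, the zinc exporter, fell with TAM from 8.91 and 7.64 TPM to 4.86 and 4.74 TPM (log2 fold change -0.60, SE 0.14, adjusted p 0.00048). It rose in all 4 TAM knockdowns, by 0.85 in YAPi (SE 0.14, adjusted p 3.7e-08), 0.67 in TAZi (SE 0.13, adjusted p 4.5e-05), 1.13 in STAT3i (SE 0.15, adjusted p 5.9e-12) and 1.19 in JUNBi (SE 0.15, adjusted p 2.7e-12). These 5 comparisons share the TAM Ctrli libraries. Under ETH it rose in YAPi (0.56, adjusted p 0.00011), TAZi (0.44, adjusted p 0.0093) and JUNBi (0.98, adjusted p 0.0016).

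The zinc importers SLC39A8 (ZIP8) and SLC39A14 (ZIP14) had the largest changes of the list with TAM. Both rose, by 2.13 (SE 0.11, adjusted p 4.3e-76) and 2.04 (SE 0.12, adjusted p 2.7e-66), and both fell in TAM STAT3i, by -1.72 (SE 0.14, adjusted p 1.8e-34) and -1.47 (SE 0.13, adjusted p 1.5e-28). The STAT3i interaction was called for both, at -1.88 (SE 0.20, adjusted p 7.3e-17) and -1.51 (SE 0.20, adjusted p 9.2e-12). In the other TAM knockdowns they rose, SLC39A8 by 1.23 in YAPi, 1.57 in TAZi and 1.19 in JUNBi and SLC39A14 by 0.62, 0.85 and 0.79. Of the 18 listed genes with an adjusted p, 3 rose and 1 fell with TAM (median log2 fold change 0.14), 5 rose and 1 fell in YAPi, 4 rose in TAZi, 1 rose and 2 fell in STAT3i and 4 rose in JUNBi. The medians in these 4 TAM knockdowns were 0.33, 0.13, -0.08 and 0.23, against -0.00 to 0.03 over all genes tested. Over all genes, 4.56% were called higher and 1.56% lower with TAM, 5.4% and 5.54% in YAPi, 1.79% and 1.74% in TAZi, 3.29% and 4.8% in STAT3i and 2.77% and 3.95% in JUNBi.

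Of 16 genes known to respond to glucocorticoids, 6 rose and 4 fell with TAM, where 4.56% of all genes were called higher and 1.56% lower, with a median of -0.10. ANGPTL4, which inhibits lipoprotein lipase, rose by 3.53 (SE 0.13, adjusted p 8.1e-160), while TFCP2L1 fell by 2.48 (SE 0.16, adjusted p 7.5e-54). In TAM STAT3i, where 3.29% of all genes were called higher and 4.8% lower, 6 rose and 5 fell (median 0.06), led by the cell cycle inhibitor CDKN1C (3.29, SE 0.33, adjusted p 5.8e-21) and ANGPTL4 (-2.03, SE 0.12, adjusted p 7.6e-63). In TAM, YAPi moved 1 up and 2 down, TAZi 1 up and 1 down and JUNBi 2 up and 4 down, against the shares of all genes given for these knockdowns above.

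Of 12 genes of metal, heat and oxidative stress, 1 rose and 5 fell with TAM (median -0.25, with 4.56% and 1.56% of all genes), the riser being GADD45B (1.21, SE 0.17, adjusted p 1.5e-10) and the largest fall that of the cystine transporter SLC7A11 (-0.90, SE 0.20, adjusted p 0.00021). In TAM STAT3i 5 rose and 1 fell (median 0.35, with 3.29% and 4.8% of all genes), with TXNRD1, a thioredoxin reductase, at 0.82 (SE 0.13, adjusted p 5.4e-09) and GADD45B at -1.06 (SE 0.17, adjusted p 4.7e-08). In TAM, YAPi raised 5 and lowered none (median 0.48), where 5.4% of all genes were called higher, among them the heme oxygenase HMOX1 at 1.86 (SE 0.35, adjusted p 4.9e-06). TAZi raised 1, where 1.79% of all genes were called higher, and JUNBi lowered 2, where 3.95% were called lower.

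Over the 20 ER-Src libraries, Pearson's r of log2(TPM + 1) was 0.975 for MT1F and MT1X, 0.883 for MT1F and MT2A and 0.865 for MT1X and MT2A, and 0.733 to 0.786 for MT1E with the others. Among 6949 other genes with a mean of at least 5 TPM in ER-Src, the summed level was most closely followed by MLKL (r = 0.941), CARHSP1 (0.936), TNFRSF6B (0.936), GRAMD1A (0.929) and PHC2 (0.921). All 5 had their highest group mean in TAM Ctrli. Most opposed were the basal keratin gene KRT15 (-0.931), SNCG (-0.925) and C1orf116 (-0.910), each lowest in TAM Ctrli. The points share treatment and depth, so these values describe likeness only.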

How the data were processed

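RNA was measured by sequencing of 36 libraries in 18 groups, made from total RNA per the study's methods. The share of RNAs without a poly(A) tail differed between the libraries, as given above, and the reason was not tested. Reads were aligned with STAR and quantified with RSEM by the authors on hg38 (GENCODE, per the study's methods), and they deposited expected counts and TPM per gene. Whether counting used strand is not given in the sources used here. TPM values were used as deposited by the authors. Of 61471 identifiers, 746 without an Ensembl gene were left out.

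Expected counts were rounded and each comparison was fitted with DESeq2 1.42.0 (R 4.3.3) across all genes, with calls at a Benjamini-Hochberg adjusted p under 0.01. Interactions were fitted over the 4 groups concerned. Genes without an adjusted p after DESeq2's own filter on low counts were left untested. The fit was tested on simulated data. Alternatives were edgeR 4.0.16 quasi-likelihood, TMM, a mean count of at least 10, effective length offsets, 1 fit over all groups, controls of both MDA-MB-231 sets, the replicate number as a block, and leaving out each library. Summed counts and shares are described without a test. The members and lists were chosen with earlier results of these data known. The genes named by likeness are the 5 with the highest and 3 with the lowest correlation to the summed TPM, and from the lists up to 2 of the largest called changes were named per comparison described, beside MTF1, SLC30A1 and other metallothionein genes with a group mean of at least 1 TPM.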

Additional observations from a re-analysis of the deposited data

Results flagged for a closer look

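The effect of STAT3i differed between TAM and ETH by a tested interaction term for MT1X (-2.54), MT1F (-2.64), MT2A (-1.42) and MT1E (-0.78), on the log2 scale. The effect of JUNBi on MT1E differed between the treatments as well (1.17). STAT3 and JUNB were left at 21.1% and 28.1% of control TPM in TAM, against 31.9% and 49.9% in ETH. Treatment and depth of knockdown cannot be told apart in these terms. With edgeR the terms for MT1F, MT2A and MT1E and the JUNBi term were not called (adjusted p 0.02, 0.027, 0.13 and 0.27). Leaving out 1 of 6 single libraries, each in turn, also ended the call for MT1E in either interaction, and leaving out TAM Ctrli replicate 2 ended that for MT1F (-2.54).

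MT1E was lower than Ctrli in both libraries of YAPi and of TAZi in ER-Src TAM cells, and higher on normalized counts in both libraries of the same knockdowns in MDA-MB-231 set 1 (log2 fold change 0.87 for YAPi and 0.50 for TAZi). On TPM, MT1E in set 1 overlapped Ctrli in YAPi and lay below Ctrli in TAZi. With the controls of both sets the set 1 values were -1.30 and -1.66. Both set 1 calls were lost without either Ctrli library. The difference between the cell lines was not tested, and in set 1 the knockdowns cannot be told apart from the differences between libraries.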

How the results depend on the processing

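Of 38 calls of a member in a comparison, 19 were kept under every alternative run, among them MT1X in TAM against ETH, in STAT3i and YAPi under TAM and in the STAT3i interaction. Of their 414 alternative values, 329 kept direction and call, 81 lost the call and 4 reversed. Where no cause is given below, the cause was not tested.

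With edgeR 1 member was called for TAZi and 1 for JUNBi in TAM, 0 for JUNBi in ETH, 1 for the STAT3i and 0 for the JUNBi interaction, and 0 for YAPi_TAZi against the other knockdowns. With 1 fit over all groups 1 was called for TAZi and 1 for JUNBi in TAM, 1 for STAT3i and 3 for JUNBi in ETH, 1 for TAZi in set 1 and 1 for JUNBi in set 2. With a mean count of at least 10, 1 was called for JUNBi in TAM and 0 for YAPi_TAZi against the others. With effective length offsets 0 were called for the JUNBi interaction, 1 for YAPi and 1 for TEADi in set 1 and 0 for YAPi_TAZi against the others. With TMM 1 was called for TAZi in set 1. With the controls of both sets 0, 1 and 0 were called for YAPi, TAZi and TEADi.

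The direction reversed with the controls of both sets for MT1E in YAPi, TAZi and TEADi (-1.30, -1.66 and -1.19) and MT1X in TEADi (-0.82). It reversed for uncalled values near 0 with effective length offsets, for MT1F in ETH TAZi (0.07) and STAT3i (0.12) and for MT1E in ETH STAT3i (0.12), set 1 YAPi_TAZi (0.33) and set 2 JUNBi (0.09). MT1E reversed in YAPi_TAZi with the count filter (0.03) and in set 2 JUNBi with edgeR (0.00) and TMM (0.04). Leaving out single libraries gave values of both signs for MT1E in YAPi_TAZi (-0.32 to 0.08) and set 2 JUNBi (-0.28 to 0.23), MT1F in ETH STAT3i (-0.12 to 0.37) and MT1X in set 2 STAT3i (-0.21 to 0.14).

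The log2 ratio of the summed count moved by more than the replicate spread on the TPM scale, to -0.45, -1.50 and -0.09 for TAZi, STAT3i and JUNBi in TAM, -0.85 for TAZi in ETH and -1.53, -1.93, -2.28 and -1.31 for YAPi, TAZi, YAPi_TAZi and TEADi in set 1, and to -1.42 for YAPi_TAZi with TMM. On normalized counts in place of TPM, 8 of the 10 ER-Src groups and 1 of the 3 set 2 groups kept their place in the order.

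Leaving out single libraries gave 3 to 4 calls for TAM against ETH, 1 to 3 for TAZi and 1 to 2 for JUNBi in TAM, 0 to 1 for STAT3i and 0 to 3 for JUNBi in ETH, 0 to 1, 2 to 4 and 0 to 2 for the TAZi, STAT3i and JUNBi interactions, 1 to 2 for YAPi and for TAZi and 0 to 3 for TEADi in set 1, 0 to 1 for YAPi_TAZi and for TEADi against the others, and 0 to 2 for each set 2 knockdown.

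Libraries share only a replicate number (correlation of deviations -0.0477 to 0.228, with 2 pairs). With the replicate block 3 members were called for TAM against ETH and 1 for TAZi in set 1. The block ended the calls for MT1E in TAM against ETH (adjusted p 0.17), TAM YAPi (0.1), TAM TAZi (0.04) and set 1 TAZi (0.076), MT2A in ETH JUNBi (0.027) and MT1X in TEADi (0.01), and added MT1E in ETH JUNBi (-0.72, adjusted p 0.0068). Without the block, 0 were called for YAPi_TAZi against the other knockdowns. Within set 2 alone no block could be fitted, because its controls and knockdowns share no replicate number. At the depth of the set 1 knockdowns MT1F had 2 to 5 counts, and its log2 fold changes against Ctrli had an SE of 0.75 to 1.15.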
